A study of Mus musculus with 13 samples.

Results

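Expression of 10 imprinted genes linked to growth, H19, Igf2, Dlk1, Meg3, Peg3, Ndn, Plagl1, Mest, Peg10 and Grb10, was examined in normal mouse ovaries and in ovarian tumors driven by MYC and loss of p53. The genes were taken by symbol from the deposited expression table, which lists 53465 genes, and all 10 were found there. The set was chosen by the wide spread of H19 TPM between tumors, so that spread is described here and is not tested. RNA-seq had been made from 3 wild-type (WT) ovaries and 10 MP tumors, where M stands for MYC and P for Trp53. WT ovaries came from untreated C57BL/6 mice, whose age was not given separately. MP tumors are Myc;p53-/- EPO-GEMM tumors, formed after electroporation of the ovary of WT C57BL/6 females aged 8 to 12 weeks with Cas9, an sgRNA against Trp53, a transposon carrying MYC and the Sleeping Beauty transposase. The electroporation does not select a cell type, the tumors hold more than one clone, and whole tissue was sequenced, so fewer cells of a type and less RNA per cell cannot be told apart in any value below.

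Imprinted genes are expressed from 1 parental chromosome only, according to methylation set in the egg or the sperm. H19, a long noncoding RNA, is expressed from the maternal chromosome, and its neighbour Igf2, which encodes a fetal growth factor, from the paternal one. An imprinting control region bound by CTCF lies between them and decides which of the pair the shared enhancers can reach. Dlk1, a Notch ligand homolog made by progenitor cells, and the noncoding RNA Meg3 form a similar pair, with Dlk1 paternal and Meg3 maternal. Several of these genes are high in the embryo and placenta and are turned down in many tissues after birth. Both parental chromosomes of an inbred C57BL/6 mouse carry the same sequence, so the values give the level of each gene and not the allele it came from.

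Some of these genes carry microRNAs inside them, and the mature sequences are shown because they tie the transcripts to products that the libraries did not capture. The sequences are from RefSeq on GRCm38.p6, written 5′ to 3′, with the seed (bases 2 to 8) in capitals. The miR-675 pair lies in an exon of H19 on the minus strand of chromosome 7 (miR-675-5p at 142577112 to 142577133), the miR-483 pair in an intron of Igf2 (miR-483-3p at 142654932 to 142654952), and the miR-335 pair in an intron of Mest on the plus strand of chromosome 6 (miR-335-5p at 30741314 to 30741336).
miR-675-5p: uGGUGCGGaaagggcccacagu
miR-675-3p: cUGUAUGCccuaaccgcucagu
miR-483-5p: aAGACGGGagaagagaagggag
miR-483-3p: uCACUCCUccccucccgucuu
miR-335-5p: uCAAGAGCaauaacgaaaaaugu
miR-335-3p: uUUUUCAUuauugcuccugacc
No 2 of these 6 share a seed. The rows of the microRNA genes Mir675, Mir483 and Mir335 were listed at 0 in every library. The libraries were made from polyadenylated RNA, so mature microRNAs were not measured.

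The libraries held 31445004 to 64013840 reads assigned to genes in WT ovaries and 3892690 to 19906507 in MP tumors, worked back from the TPM (transcript levels per length, a scale that sums to the same total in each library). Intervals and floors from these reads cover counting error only. A number after the letters IGO in the sample descriptions splits the tumors. It is called the request here, and the labels do not say what the libraries under 1 number shared. MP tumors 1 to 3 share the first request with all WT ovaries, MP tumors 4 to 6 are of the second and MP tumors 7 to 10 of the third. No WT ovary belongs to the second or the third request, so request and tumor cannot be told apart there, and the comparison within the first request is given for the 10 genes and for some of the others. Trp53, the edited gene, lay at 80.7 to 85.4 TPM in WT ovaries, at 4.30 to 26.0 in MP tumors 1 to 9 and at 187 in the library labelled MP tumor 10. An edited gene may still be transcribed, so the RNA level does not show whether Trp53 was cut. In MP tumor 2, 10 genes took 55.1% of the TPM. Summed markers of granulosa cells, steroid-making cells, oocytes, smooth muscle and endothelium were below every WT ovary in all 10 tumors, and the 5 summed proliferation markers were above every WT ovary in 8.

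**Figure D1:**
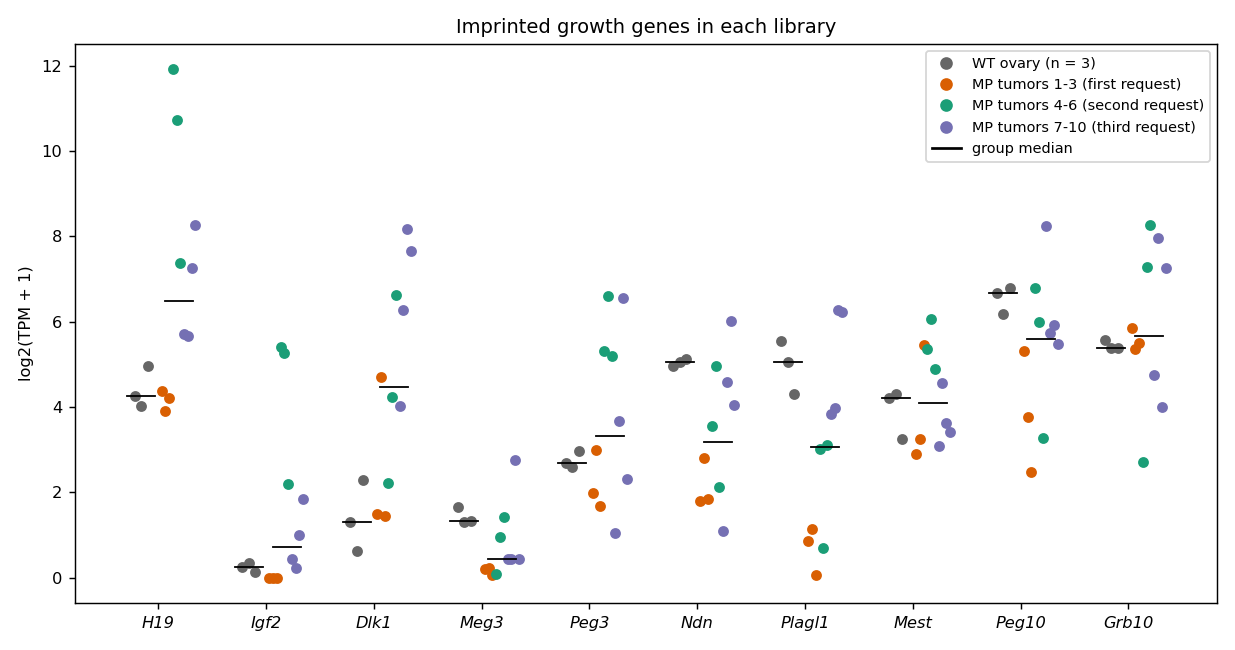
Each point is 1 library, on a log2(TPM + 1) axis, with WT ovaries in grey, tumors colored by request and a bar at the median of each group. H19 and Igf2 are highest in MP tumors 4 and 5, and the tumors of the first request mostly sit within or below the WT points.

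H19 was among the genes that varied most between tumors. H19 (ENSMUSG00000000031; GRCm38 chromosome 7, 142575529 to 142578143) was at 18.1, 15.3 and 30.2 TPM in the 3 WT ovaries. In MP tumors 1 to 3 it was at 19.7, 14.0 and 17.4 TPM, the same low level as in normal ovary. In MP tumors 4, 5 and 6 it reached 3856, 1703 and 165 TPM, and in MP tumors 7 to 10 it was at 51.7, 49.9, 153 and 307 TPM. All tumors of the second and the third request were therefore above every WT ovary, and the tumors of the first request were not. The highest tumor was 276-fold above the lowest. The standard deviation of log2(TPM + 1) over the 10 tumors was 2.74, and 99.8% of the 17277 genes tested had a smaller one, where the median gene had 0.861. In MP tumor 4, H19 made up 93.8% of the summed TPM of the 10 genes and 0.386% of all TPM, from 16558 reads. MP tumors 4 and 5 were also the shallowest libraries, but H19 rested on at least 191 reads in every library.

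Igf2 had few or no assigned reads in normal ovary and in the first tumors, and was highest in the same tumors as H19. Igf2 (ENSMUSG00000048583; chromosome 7, 142650766 to 142666816, 72.6 kb from H19) was at 0.188, 0.266 and 0.0986 TPM in WT ovaries, from 11 to 16 reads. No read was assigned to it in MP tumors 1 to 3, where 3 reads would have given 0.0598 to 0.0943 TPM. It reached 41.6 TPM in MP tumor 4 and 37.7 in MP tumor 5, followed by 3.54 in MP tumor 6 and 2.58 in MP tumor 10. MP tumors 7, 8 and 9 were at 0.361, 0.171 and 0.986 TPM, of which the value of MP tumor 8 lay within the WT range. Of the 5723 exon bases of Igf2, 62.8% are shared on the same strand with the gene model AC013548.1, which was listed at 0 in all libraries. As AC013548.1 stayed at 0, reads in shared exons were not counted for both genes, but whether they were dropped is not given in the sources used here. If they were dropped, the level of Igf2 is understated in every library, so only differences between libraries are read from it.

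Across the 10 tumors H19 and Igf2 followed each other closely. On log2(TPM + 1), Pearson's r was 0.961 (permutation p = 3e-05, Benjamini-Hochberg adjusted p = 0.00135 over all 45 pairs of the 10 genes) and Spearman's rho was 0.976 (permutation p = 5e-05, adjusted p = 0.00225). With MP tumors 4 and 5 left out, the pair farthest from the median of H19, r was 0.905 over 8 tumors. With both genes centred on the mean of each request r was 0.965, and the requests hold too few tumors for a value within each. H19 was chosen for its spread over these same tumors. The permutations moved tumors freely between requests, so the p-values above do not allow for the request. Leaving out any 1 tumor gave r from 0.935 to 0.972. Igf2os, an RNA antisense to Igf2 that shares only 98 exon bases with it, gave r = 0.871 with H19, a check added after the data were seen. Ins2, the next gene beyond Igf2, at 0 to 0.103 TPM in WT ovaries, stayed between 0 and 1.81 TPM in tumors.

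**Figure D2:**
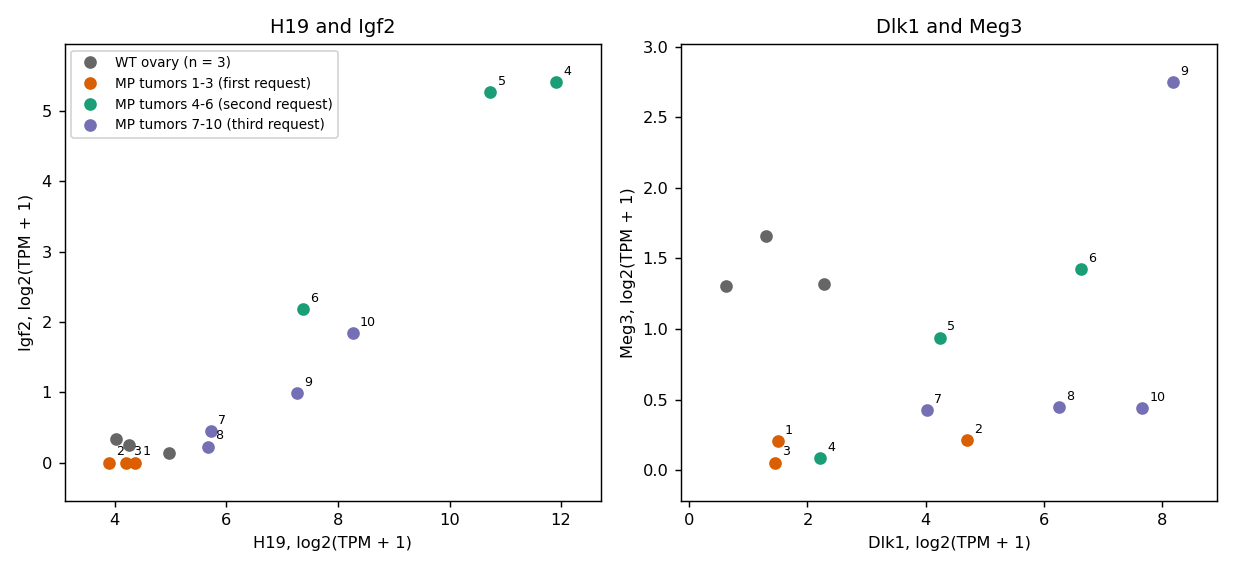
Each point is 1 library on log2(TPM + 1) axes, with tumor numbers beside the points: H19 against Igf2 on the left and Dlk1 against Meg3 on the right. H19 and Igf2 rise along 1 line (r = 0.961 over 10 tumors), while Dlk1 and Meg3 scatter more widely (r = 0.683). The WT ovaries have more Meg3 than MP tumors 1, 3 and 4, which lie within their range of Dlk1.

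In the fit of all 10 tumors, Dlk1 had the largest difference between tumors and ovaries among the 10 genes, while Meg3 was below WT ovary in most tumors. Dlk1 (ENSMUSG00000040856; chromosome 12, 109452823 to 109463336) was at 1.46, 0.537 and 3.85 TPM in WT ovaries. In tumors its lowest level was 1.73 TPM, its median 21.4 and its highest 289, in MP tumor 9, and 7 of 10 tumors were above every WT ovary. MP tumors 1, 3 and 4 stayed within the WT range, at 1.82, 1.73 and 3.65 TPM. Meg3 (ENSMUSG00000021268; chromosome 12, 109541001 to 109571726, 77.7 kb from Dlk1) was at 2.16, 1.48 and 1.49 TPM in WT ovaries. Its lowest level in tumors was 0.0378 TPM, its median 0.349 and its highest 5.72, again in MP tumor 9. It was below every WT ovary in 8 tumors, within their range in MP tumor 6 (1.69 TPM) and above it in MP tumor 9. In MP tumor 4 Meg3 rested on 2 reads.

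Among the tumors themselves, those with more Dlk1 tended to have more Meg3, but the relation did not pass correction. Pearson's r was 0.683 (permutation p = 0.0148, adjusted p = 0.171 over 45 pairs) and Spearman's rho 0.842 (adjusted permutation p = 0.0832). Centred on request r was 0.602 (permutation p = 0.0539), without MP tumor 9 it was 0.578 (permutation p = 0.103), and without the 2 tumors farthest from the median of Dlk1, MP tumors 9 and 10, it was 0.713. Other genes of this domain were measured too. Begain, a gene of synapses on the far side of Dlk1, was at 1.62 to 2.55 TPM in WT ovaries and 0.104 to 11.3 in tumors, highest in MP tumor 6 (0.47, limma adjusted p = 0.681), and was lower within the first request (-1.30, limma adjusted p = 0.000983). Rtl1 was at 1.07 TPM or less in every library and was not tested. Rian, a noncoding RNA downstream of Meg3, was at 3.94 to 4.99 TPM in WT ovaries and 0.126 to 7.37 in tumors (limma adjusted p = 0.150), and was lower within the first request (-1.47, limma adjusted p = 0.00402). Dio3, which encodes the enzyme that inactivates thyroid hormone at the far end of the domain, fell from 9.09 to 11.1 TPM in WT ovaries to 0 to 3.70 TPM in tumors (log2 fold change -3.13, SE 0.42, limma adjusted p = 9.77e-05).

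Peg3 and Ndn, which encode a zinc-finger protein and a MAGE family protein known for restraining growth, stood to WT ovary in unlike ways. Peg3 (ENSMUSG00000002265; chromosome 7, 6703892 to 6730431) was at 5.41, 5.03 and 6.77 TPM in WT ovaries. In tumors it ran from 1.05 TPM in MP tumor 7 through a median of 9.29 to 96.5 in MP tumor 5, with 93.7 in MP tumor 9, and no tumor fell within the narrow WT range: 6 were above it and 4 below. Usp29, whose start lies 146 bases from that of Peg3, and Zim1, the next gene on its other side, were highest in MP tumors 9 and 5, at 1.37 and 12.8 TPM. Ndn (ENSMUSG00000033585; chromosome 7, 62346569 to 62350262) was at 30.2, 32.4 and 33.8 TPM in WT ovaries. In tumors it had a lowest level of 1.12, a median of 8.32 and a highest of 63.9 TPM, and 9 of 10 tumors were below every WT ovary. MP tumor 5, at 29.96 TPM, missed the WT range narrowly, and MP tumor 9 alone was above it.

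Plagl1, a zinc-finger transcription factor, was nearly lost in some tumors and kept in others. Plagl1 (ENSMUSG00000019817; chromosome 10, 13060504 to 13131694) was at 45.6, 32.3 and 18.8 TPM in WT ovaries. MP tumors 1 to 3 were at 0.819, 1.20 and 0.0438 TPM, the last from 3 reads, and MP tumor 5 at 0.607. MP tumors 4, 6, 7 and 8 were at 7.11, 7.68, 13.3 and 14.8 TPM, still below every WT ovary, while MP tumors 9 and 10 were above, at 76.7 and 73.5. Over the tumors Plagl1 correlated with Dlk1 (r = 0.799, permutation p = 0.00699, adjusted p = 0.157), with r = 0.572 once MP tumors 9 and 10 were left out.

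Mest, a hydrolase-like protein of the endoplasmic reticulum, had the smallest difference of the 10 genes in the fit of all tumors on unscaled TPM. Mest (ENSMUSG00000051855; chromosome 6, 30723547 to 30748465) was at 17.6, 18.6 and 8.44 TPM in WT ovaries. In tumors it ran from 6.38 through a median of 16.97 to 65.3 TPM in MP tumor 5, with 5 tumors above, 2 below and 3 within the WT range. The 3 tumors of the second request, at 40.1, 65.3 and 28.7 TPM, were all above the WT ovaries. Mest shares 912 of its 3945 exon bases with Copg2 on the other strand, and whether the counting used strand is not given in the sources used here.

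Peg10, derived from a retrotransposon and needed in the placenta, was the most abundant of the 10 genes in normal ovary. Peg10 (ENSMUSG00000092035; chromosome 6, 4747306 to 4760517) was at 100.1, 71.1 and 109 TPM in WT ovaries. Tumors had a lowest level of 4.52, a median of 47.7 and a highest of 304 TPM. MP tumor 7 was highest, MP tumor 4 lay just above the top WT value and the other 8 tumors were below every WT ovary. Sgce, which starts 98 bases away in the other direction, was at 20.4 to 25.6 TPM in WT ovaries and at 0.441 to 18.5 in tumors, below every WT ovary in all of them (limma adjusted p = 0.0822, and 0.000530 within the first request).

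Grb10, an adaptor that dampens signalling from the insulin and IGF receptors, split the tumors to both sides of normal ovary. Grb10 (ENSMUSG00000020176; chromosome 11, 11930508 to 12038683) was at 46.7, 40.4 and 40.4 TPM in WT ovaries. The tumors of the first request stayed near them, at 57.0, 40.2 and 43.9 TPM. MP tumors 5, 6, 8 and 10 were at 154, 306, 247 and 152 TPM, and MP tumors 4, 7 and 9 at 5.55, 25.9 and 15.0. MP tumor 4, with the most H19, thus had the least Grb10.

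When all MP tumors were compared with WT ovaries, none of the 10 genes passed the test. The comparison used limma on log2(TPM + 1) with Benjamini-Hochberg adjustment over 17277 genes with at least 1 TPM in at least 3 libraries, all 10 among them. At an adjusted p under 0.05, 16.8% of all tested genes were called, 433 of them higher (2.51%) and 2463 lower in tumors, and all tested genes together had a median of -0.58 on the log2 scale. Dlk1 came closest, with a log2 fold change of 3.28 (SE 1.30, limma adjusted p = 0.0935), and was the 1 gene of the 10 with an unadjusted p under 0.05 (limma p = 0.0232). H19 had 2.53 (SE 1.41, limma adjusted p = 0.221) and Igf2 1.40 (SE 1.09, adjusted p = 0.377). On the other side, Plagl1 had -2.05 (SE 1.18, limma adjusted p = 0.234), Ndn -1.77 (SE 0.87, adjusted p = 0.168) and Peg10 -1.24 (SE 0.91, adjusted p = 0.343). Meg3 at -0.73, Peg3 at 0.99, Grb10 at 0.45 and Mest at 0.34 had limma adjusted p from 0.287 to 0.750. Meg3 lay mostly under 1 TPM, and its log2 fold change was -1.78 with a pseudocount of 0.1 (limma adjusted p = 0.219) and -1.96 with limma-voom on reads (adjusted p = 0.0621). Without MP tumor 9, Meg3 passed (-0.96, limma adjusted p = 0.0353), in a fit that called 21.8% of all genes, 18.9% lower. Dlk1 passed after median-of-ratios scaling (3.68, limma adjusted p = 0.0412, with 18.4% of all genes called), which brought the median of all genes to -0.02 and the calls to 1274 higher and 1897 lower, and after quantile normalization (4.02, adjusted p = 0.0245, 23.1% called), with 1904 higher and 2091 lower. In none of the 10 genes were the TPM of the groups without overlap, against 19.4% of all tested genes. The standard deviation of log2(TPM + 1) over tumors was 1.61 or more in 8 of the 10 genes, all but Mest (1.14) and Meg3 (0.83).

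Within the first request, the only one that holds both groups, a different picture was seen. Against the 3 WT ovaries, MP tumors 1 to 3 had lower Plagl1 (log2 fold change -4.28, SE 0.41, limma adjusted p = 8.99e-05), Ndn (-2.90, SE 0.33, adjusted p = 0.000203), Peg10 (-2.69, SE 0.67, adjusted p = 0.00919) and Meg3 (-1.27, SE 0.19, adjusted p = 0.000726). In this fit 63.7% of all tested genes were called, and 6.44% of all tested genes were higher. These 4 of 10 stand beside 57.3% of all tested genes called lower in the same fit, and the median of all genes was -1.19. The value of Meg3 is close to that median, and those of the other 3 genes are further down. The fit used unscaled TPM and included MP tumor 2, where 10 genes took 55.1% of the TPM. The part of that library in these values was not tested. H19 had -0.26 (SE 0.34, limma adjusted p = 0.525), Igf2 -0.24 (SE 0.15, adjusted p = 0.194) and Dlk1 1.15 (SE 0.89, adjusted p = 0.288). Peg3 at -0.52, Mest at -0.06 and Grb10 at 0.13 had limma adjusted p of 0.240, 0.948 and 0.715. H19, Igf2, Peg3 and Mest changed sign between all 10 tumors and these 3.

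**Figure D3:**
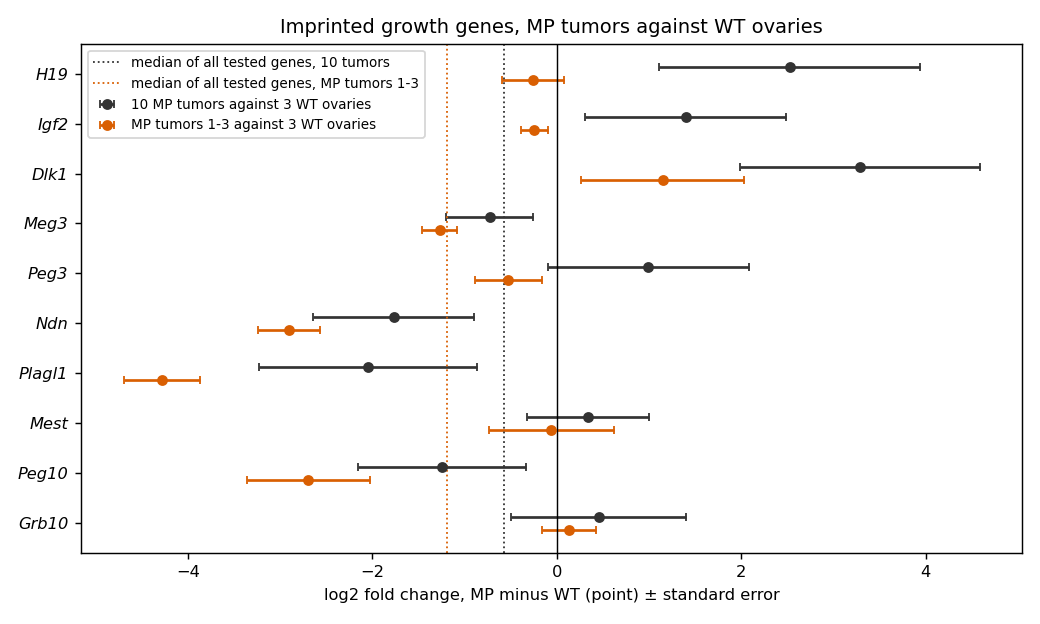
Points give the log2 fold change of each gene, MP minus WT, and bars its standard error, for all 10 tumors (black) and for MP tumors 1 to 3 (orange), with dotted lines at the medians of all tested genes (-0.58 and -1.19). The orange points of Plagl1, Ndn and Peg10 lie left of both medians, and the black bars of H19, Igf2 and Dlk1 are several times as wide as the orange ones of H19 and Igf2.

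Allowing tumors and ovaries a spread of their own (library weights by group in limma) brought 6 of the 10 genes past the threshold. H19 (limma adjusted p = 0.0132) and Dlk1 (0.00272) were then higher, and Meg3 (0.0391), Plagl1 (0.0203), Peg10 (0.0481) and Ndn (0.00548) lower, at the same log2 fold changes as above. The same setting called 53.4% of all tested genes, 10.9% higher and 42.5% lower. With the request as a covariate (54.6% called), Plagl1, Peg10 and Ndn were lower, beside 49.4% of all genes.

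Across the other settings the share of all tested genes called gives the background for the 10 genes. With a pseudocount of 0.1, 2.44% were higher and 10.1% lower, with a minimum of 5 TPM 3.19% were higher, with limma-voom 23.4% were lower and after thinning 2.55% were higher, and none of the 10 genes was called by limma in any of these. With the request as a covariate 5.17% were higher. With the replicate number as a block within the first request 6.34% were higher and 56.9% lower, and the same 4 genes were called lower as without it. Without WT ovary 1, 0.781% were higher and 6.7% lower, without WT ovary 2, 7.8% were called and 6.92% were lower, and without WT ovary 3, 7.4% were called, 0.544% higher and 6.86% lower. Without MP tumor 1, 2.08% were higher. None of the 10 genes was called in these fits.

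Of the 45 pairs of the 10 genes, 34 had a positive and 11 a negative correlation over the tumors, and H19 with Igf2 was the 1 pair past the corrected threshold. A further 7 pairs had an unadjusted p under 0.05, among them Peg3 with Ndn (r = 0.737, permutation p = 0.0190, adjusted p = 0.171, and r = 0.456 without MP tumors 5 and 9). H19 with Peg3 gave r = 0.674 (permutation p = 0.0347, adjusted p = 0.205), and Grb10 had no r above 0.37 with any of the others. The lowest r was -0.36, between Peg10 and Grb10. Other pairs of H19 depended on MP tumors 4 and 5. Over the 8 tumors without them, r of H19 rose from 0.248 to 0.880 with Plagl1 and from 0.128 to 0.834 with Dlk1. It fell from 0.554 to 0.0126 with Mest. These values over 8 tumors were not tested.

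**Figure D4:**
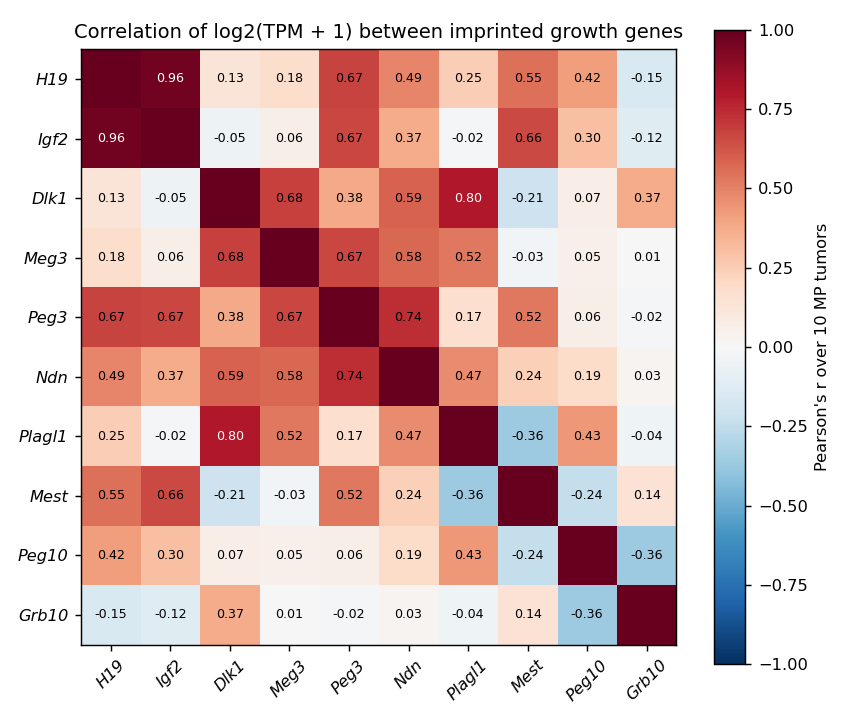
Each square gives Pearson's r of log2(TPM + 1) for a pair of the 10 genes over the 10 MP tumors, from blue (-1) to red (1). The darkest square off the diagonal is H19 with Igf2 (0.96), followed by Dlk1 with Plagl1 (0.80), and Grb10 stays pale against most genes.

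MP tumors 5 and 9 stood out in several of these genes and in stromal markers. The 8 summed markers of fibroblasts and stroma came to 1429.9 to 2449 TPM in WT ovaries, 2499 in MP tumor 5 and 4892 in MP tumor 9, and to 94.2 to 666 in the other 8 tumors. MP tumors 5 and 9 also had the highest endothelial sums of the tumors (227 and 168 TPM) and leukocyte sums (223 and 188 TPM). The smooth muscle sum was 1291 TPM in MP tumor 5 and 280 in MP tumor 9, beside 55.0 to 359 in the other 8. MP tumor 9 had the highest Dlk1, Meg3, Ndn and Plagl1 and the second highest Peg3, and MP tumor 5 the highest Peg3 and Mest. The 9 summed epithelial markers came to 289 to 320 TPM in WT ovaries and to 8.28 to 1201 in tumors, and MP tumors 4, 5 and 9 were the ones above every WT ovary. MP tumors 4 and 5, with the most H19 and Igf2, thus had epithelial sums of 1201 and 339 TPM but stromal sums of 218 and 2499. The 8 summed granulosa markers were higher in the 4 tumors with the most H19 and Igf2, at 1510.1, 849, 904 and 941 TPM in MP tumors 4, 5, 6 and 10, than in the other 6, at 4.60 to 187, and at 3629 to 6787 in WT ovaries. Inha, the inhibin alpha subunit, made up 91.3% to 99.1% of these 4 sums. Without Inha the 4 tumors had 80.6, 74.0, 65.9 and 8.60 TPM, beside 0.698 to 109 in the other 6 and 818 to 1498 in WT ovaries. Foxl2 was at 76.0, 39.3, 49.5 and 6.91 TPM in MP tumors 4, 5, 6 and 10, and at 0.553 to 27.3 in the other 6. Cyp19a1 was at 0 in all tumors but MP tumor 7, and Fshr in all but MP tumor 5. Markers of skeletal muscle summed to 10.6 to 14.8 TPM in WT ovaries and were above every WT ovary in 9 tumors, up to 1925 in MP tumor 1, where H19 was at 19.7 TPM. These sums rested on few genes in several tumors. Of the 12 markers, 2 to 8 reached 1 TPM in tumors, with 2 in MP tumor 7, where the sum was 419 TPM. In WT ovaries 2 or 3 reached 1 TPM. The part of these cell types in the levels of the imprinted genes was not tested.

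Genes whose level followed that of H19 over the 10 tumors were looked for among 8829 genes with a mean of at least 10 TPM in tumors. Igf2, with a mean of 8.70 TPM, was not among them, and its r with H19 (0.961) was above that of Sh3bgr. The most similar of those compared was Slc1a6, a glutamate transporter, with r = 0.979, at 0 to 74.3 TPM and highest in MP tumor 4, followed by Phf13 (0.968), Tsc22d1 (0.961), Pcyox1 (0.961) and Sh3bgr (0.955). For Igf2 they were Slc1a6 (0.983), Plekhb1 (0.968), Sh3bgr (0.965), H19 (0.961) and Gm45889 (0.952). Gm45889 lies on chromosome 7, 142283210 to 142290418, on the same side as H19. These are descriptions of 10 libraries, in which MP tumors 4 and 5 are high for most of the genes named. Slc1a6, Plekhb1, Gm45889 and Sh3bgr had medians of 1.98, 0.867, 2.54 and 8.89 TPM over the tumors and reached the minimum mean only through MP tumors 4 and 5, where H19 and Igf2 were highest. Slc1a6 was at 74.3 TPM in MP tumor 4 and 31.2 in MP tumor 5.

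Other imprinted genes were called about as often as genes in general. Of 63 in the list, 62 were in the table and 47 were tested, of which 8 (17%) were called, all of them lower, beside 14.3% of all tested genes called lower. Their median log2 fold change was -0.58, equal to that of all genes. With quantile normalization or the request covariate 4 of them were called higher, beside 11% and 5.17% of all tested genes. With limma-voom, library weights or within the first request 5 were, beside 10.9%, 10.9% and 6.44%. Nap1l5, an imprinted gene without introns, fell most, from 104 to 231 TPM in WT ovaries to 0 to 2.92 in tumors (log2 fold change -6.36, SE 0.45, limma adjusted p = 1.28e-07). Nnat, a small membrane protein of neurons and endocrine cells, fell from 30.9 to 83.1 TPM to 0.0761 to 15.0 (-4.52, adjusted p = 0.00104), and the noncoding RNA Peg13 from 62.0 to 80.0 TPM to 0.267 to 15.2 (-4.01, adjusted p = 0.00181). Pon2 and Pon3, near Peg10 and encoding lactonases, were lower by limma at -2.03 (adjusted p = 0.0114) and -2.32 (adjusted p = 0.0180). Osbpl5, a lipid transfer protein gene of distal chromosome 7 (-3.14, limma adjusted p = 0.0470), and Zrsr1, a splicing factor gene (-1.47, adjusted p = 0.0496), passed narrowly, and each lost its call in 9 of the 13 fits that left out 1 library. Among the other settings Zrsr1 lost its call in 6 and Osbpl5 in 3. Pon3 lost its call in 3 of the 13 fits and Pon2 in 2, each time without a WT ovary. The number called lower was 4, 5 and 4 without WT ovary 1, 2 and 3, and 13 without MP tumor 9, beside 6.7%, 6.92%, 6.86% and 18.9% of all tested genes called lower in those fits.

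Of these 47 genes, 11 had TPM without overlap between the groups, beside the 19.4% of all tested genes. For 10 of these 11 genes the tumors were the lower group, among them Sgce, Copg2, Casd1 and Blcap, which did not pass the test with all tumors. The other was Phlda2, a maternally expressed gene that limits placental growth, at 0.183 to 0.387 TPM in WT ovaries and 0.671 to 462 in tumors (log2 fold change 3.86, SE 1.38, limma adjusted p = 0.0671, and 0.0180 within the first request). Its highest tumors were MP tumor 1 (462 TPM) and MP tumor 7 (239 TPM), not those with the most H19. Cdkn1c, a maternally expressed inhibitor of the cell cycle from the same part of chromosome 7, ran from 3.83 to 132 TPM in tumors against 7.99 to 24.9 in WT ovaries (limma adjusted p = 0.380). Slc38a4, an amino acid transporter, had 7.48 to 8.17 TPM in WT ovaries and a median of 61.4 in tumors (limma adjusted p = 0.0605), and was higher within the first request (2.43, limma adjusted p = 0.000179).

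**Figure D5:**
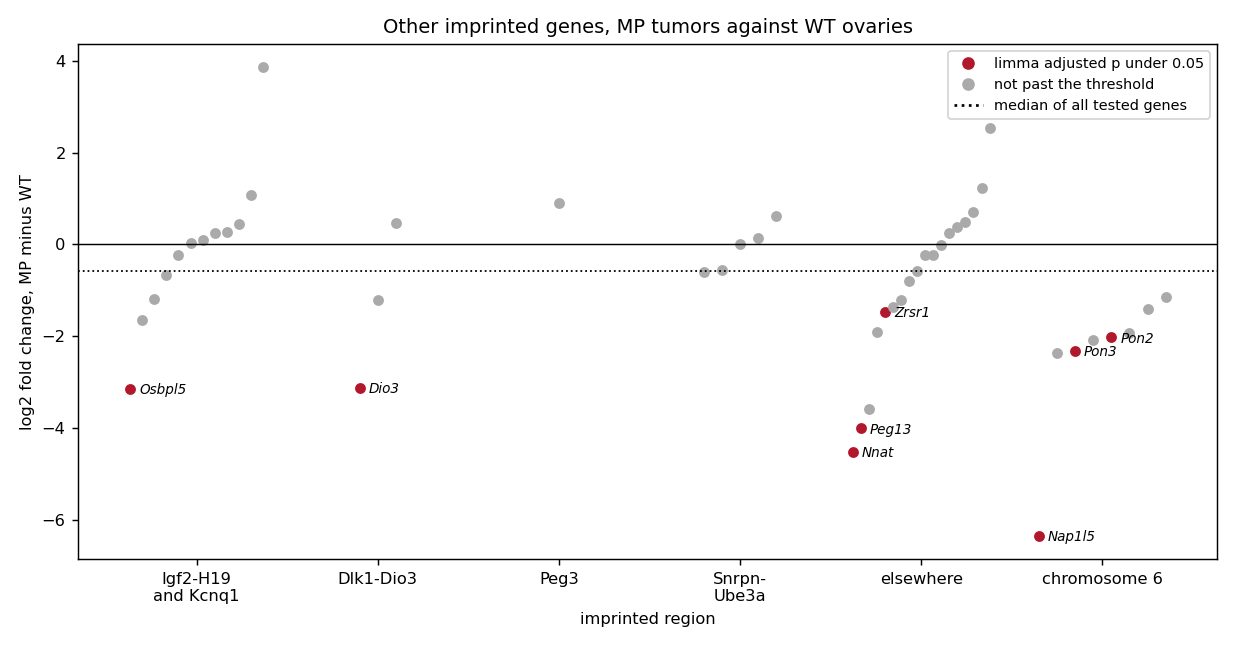
Each point is 1 of the 47 tested imprinted genes outside the set of 10, by region, with its log2 fold change, MP minus WT, on the y axis. Red points passed the limma threshold and all 8 lie below the dotted median of all genes (-0.58), while the highest grey point, in the first region, is Phlda2 at 3.86.

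Of 21 genes of the IGF2 pathway 16 were tested and 5 (31.2%) were called, all lower, beside 16.8% of all tested genes called and 14.3% lower, with a median log2 fold change of -2.20 beside -0.58 for all genes. Those called were Htra1, a secreted protease that cleaves IGF binding proteins (-5.14, limma adjusted p = 0.00197), the binding protein Igfbp5 (-3.11, adjusted p = 0.0439), the related Igfbp7 (-3.46, adjusted p = 0.0277), Pappa, another protease acting on IGF binding proteins (-2.38, adjusted p = 0.0209), and Igf2bp2, which binds Igf2 mRNA (-1.93, adjusted p = 0.0133). Igfbp5 lost its call in 9 of the 13 fits that left out 1 library, and with a pseudocount of 0.1, no filter or median-of-ratios scaling (limma adjusted p = 0.0573, 0.0659 and 0.0706). MP tumor 9, at 606 TPM of Igfbp5, was above every WT ovary (341 to 520.5 TPM). Leaving out WT ovary 1, 2 or 3 left 1, 1 and 3 of the 16 called lower, beside 6.7%, 6.92% and 6.86% of all genes. Igf1r, the receptor that carries the growth signal, was at 30.5 to 43.2 TPM in WT ovaries and 0.166 to 37.3 in tumors (limma adjusted p = 0.0837), with 7.37 TPM in MP tumor 4 and 25.1 in MP tumor 5, and was lower within the first request (-4.52, limma adjusted p = 2.94e-05). Igf2r, the imprinted receptor that clears IGF2, was at 58.7 to 62.1 TPM in WT ovaries and 13.04 to 111 in tumors, highest in MP tumor 5 (limma adjusted p = 0.809), and was lower within the first request (-1.55, limma adjusted p = 0.0149). Igf1, the other ligand, was at 27.6 to 39.8 TPM in WT ovaries, at 402 in MP tumor 9 and at 1.04 to 8.22 in the other tumors (limma adjusted p = 0.153, and 0.000113 within the first request). In that request 13 of the 16 genes were called lower, beside 57.3% of all genes.

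Among 17 regulators of imprinted loci, 16 were tested and 2 (12.5%) were called, both lower, beside 16.8% of all tested genes called and 14.3% lower. Dppa3, which protects imprints from demethylation in the fertilized egg, fell from 30.8 to 40.9 TPM in WT ovaries to 0 to 2.66 in tumors (log2 fold change -4.61, SE 0.44, limma adjusted p = 2.64e-06). Zfp57, a zinc-finger protein that binds methylated imprints, fell from 16.5 to 30.8 TPM to 0.0938 to 12.6 (-3.31, SE 0.74, limma adjusted p = 0.00694). Its level was 12.6 TPM in MP tumor 9 and 11.3 in MP tumor 5, the tumors with stromal sums above WT. Dppa3 is a gene of the egg, and the 8 summed oocyte markers lay at 295 to 433 TPM in WT ovaries and at 1.43 to 32.1 in tumors. The part of lost oocytes in the result was not tested. Zfp57 missed the threshold without WT ovary 1 (limma adjusted p = 0.0504), which left 1 regulator called. With the request covariate 10 of the 16 were called lower, within the first request 11 and with library weights 7. The shares of all tested genes called lower there were 49.4%, 57.3% and 42.5%.

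ZFP57 is known to bind the letters TGCCGC when methylated, and the 250 bases before the start of each gene were searched for them on both strands (TGCCGC or GCGGCA, overlapping hits counted). RefSeq promoters were given for 8 of the 10 genes, in 15 windows, and not for H19 and Peg10. The letters were found in 4 windows of 3 genes, Meg3, Plagl1 and Mest, beside 8.68% of 32851 promoters. Of the 4 windows, 2 are overlapping windows of Mest. The hexamer holds a CpG (C followed by G). The windows with it hold 10 (Meg3), 19 (Plagl1) and 14 (Mest) CpG, beside a median of 6 over all promoters. The Meg3 window (GRCm38.p6, chr12:109540746-109540995, plus strand) and 1 of the overlapping pair of Mest windows (chr6:30737800-30738049, plus strand) are shown because they hold the hexamer and lie outside annotated exons, with the hexamer in capitals.
Meg3: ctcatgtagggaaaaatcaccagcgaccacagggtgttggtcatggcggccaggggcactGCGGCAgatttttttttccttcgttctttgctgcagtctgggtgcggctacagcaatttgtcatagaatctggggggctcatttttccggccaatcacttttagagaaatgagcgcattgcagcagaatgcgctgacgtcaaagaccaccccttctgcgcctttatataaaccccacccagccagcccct
Mest: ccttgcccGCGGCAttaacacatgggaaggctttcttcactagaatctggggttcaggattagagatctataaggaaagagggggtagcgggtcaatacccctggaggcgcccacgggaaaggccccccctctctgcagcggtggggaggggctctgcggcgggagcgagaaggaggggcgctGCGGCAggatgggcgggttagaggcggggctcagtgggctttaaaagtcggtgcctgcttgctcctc
Meg3 holds the hexamer once and Mest 2 times. Meg3 and Plagl1 were each below every WT ovary in 8 tumors and Mest in 2. A match of letters is a description and not a bound site.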

How the data were processed

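The authors deposited 1 table of TPM per gene with gene lengths, for 13 libraries of polyadenylated RNA (single-end reads of 76 bases, TruSeq). The submitters' processing notes name FastQC 0.11.5, Trimmomatic 0.36, STAR 2.5.3a, featureCounts 1.6.3 and mm10 (GRCm38), in no stated order, while the extraction text names other tools, a human build and RPKM, so the counting options are not given in the sources used here. Gene models matched GENCODE release 21 for mouse in start and end for 96.2% of genes. TPM multiplied by length came out as whole multiples of 1 read in 100.0% of values (tolerance 0.01), which gave reads per library. The deposited TPM values were tested on log2(TPM + 1) with limma 3.58.1 (R 4.3.3; trended, robust, no covariate), with Benjamini-Hochberg adjustment over the genes that reached 1 TPM in 3 or more libraries. The limma fit was tested on simulated reads with the same dispersion in both groups and no request effect. Unequal spread between groups and differences between requests were not part of that test. Correlations over tumors used Pearson's r and Spearman's rho with 100000 two-sided permutations. Groups came from the sample labels, and nothing there says that samples came from separate mice, so p-values measure the spread between these samples. No 2 libraries were alike within counting noise (chi-square per degree of freedom of at least 28.4 between any pair of a group).

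The set of 10 genes, the lists of other imprinted genes, IGF2 pathway genes, regulators and cell markers, and the tests were chosen with earlier results of these data known. Text names the 10 genes, all genes of the 3 lists past the threshold (up to 8 a list, by size of change), genes that share a domain with the 10 or act on IGF2, and the 5 genes most like H19 and Igf2 among those with a mean of at least 10 TPM in tumors. Outside these rules, Trp53, Slc38a4, Blcap and single granulosa markers are named too. Peg13 was listed with the Snrpn-Ube3a region but lies on chromosome 15 in the table. Markers of adipocytes and of fetal liver and yolk sac summed to 17.2 to 243 and 0 to 3.32 TPM in tumors, against 23.5 to 322 and 32.1 to 58.1 in WT ovaries, and leukocyte markers to 31.2 to 223 against 140.1 to 293. Alternatives covered the pseudocount, the filter, scaling, reads in place of TPM, depth, the request number, limma options, the replicate number and each library left out. Analyses used Python 3.11.15, pandas 2.3.3, numpy 2.4.6 and scipy 1.17.1, with figures from matplotlib 3.10.9.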

Additional observations from a re-analysis of the deposited data

Results flagged for a closer look

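In each of the 10 genes and the 15 other genes past the threshold, the highest and lowest of the 10 MP tumors were compared with the nearest other tumor by Dixon's ratio of gap to range on log2(TPM + 1), against the 95% critical value for 10 samples. Of the 25 genes 2 had such a tumor, where chance gives about 1 in 20. Meg3 in MP tumor 9, at 5.72 TPM, stood apart from MP tumor 6 at 1.69 TPM (ratio 0.490). Dio3, of the same domain, stood out in MP tumor 1, at 3.70 TPM, above MP tumor 10 at 0.633 TPM (ratio 0.683).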

How the results depend on the processing

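No member of the 10 genes was called lower or higher with a pseudocount of 0.1, without a filter, with a minimum of 5 TPM (where Igf2 and Meg3 were not tested), with limma-voom on reads, after thinning to equal depth or without trend. Of 258 refitted values of the 10 genes, 225 kept direction and side of the threshold, 20 passed it newly and 13 reversed. H19 (-0.26), Igf2 (-0.24), Peg3 (-0.52) and Mest (-0.057) reversed with the request as a covariate, within the first request and there with the replicate block, and Mest without WT ovary 3 (-0.00026 to 0.53 over the fits that left out 1 library). The cause was not tested. Of the 10 genes, 1 was called higher after median-of-ratios scaling and 1 after quantile normalization, 2 with library weights, 3 lower with the request covariate, 4 lower within the first request and 4 with library weights. Leaving out 1 library gave 0 higher and 0 to 1 lower.

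Genes called higher numbered 1274 (median-of-ratios), 1904 (quantile), 1879 (voom), 894 (request covariate), 1112 (first request), 1883 (weights) and 675 (MP tumors 2 and 10 left out, added after seeing the data). Genes called lower numbered 4042 (voom), 8534 (request covariate), 9902 (first request) and 7348 (weights). Leaving out 1 library gave 94 to 635 higher and 1158 to 3264 lower, with the fewest without a WT ovary (135, 153 and 94 higher without WT ovary 1, 2 and 3). Other imprinted genes called higher numbered 1 (pseudocount 0.1, median-of-ratios, MP tumors 2 and 10 left out), 4 (quantile, request covariate) and 5 (voom, first request, weights), and called lower 16 (voom), 23 (request covariate), 28 (first request) and 22 (weights). Leaving out 1 library gave 0 to 1 higher and 4 to 13 lower. Of 389 refitted values of the 15 other named genes, 336 kept their call, 53 lost it and 0 reversed.

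The replicate numbers shared by WT ovaries and MP tumors 1 to 3 did not pair the samples (correlations of deviations -0.0963, -0.0214 and 0.00118). With the replicate block 1095 genes were higher and 9838 lower, 4 of the 10 genes were lower, and 4 other imprinted genes were higher and 28 lower.

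The correlation of H19 with Igf2 was 0.905 to 0.985 over the scalings, centring and tumors left out. That of Dlk1 with Meg3 was 0.602 (p = 0.0539, permutation) when centred on request and 0.578 to 0.810 with 1 tumor left out. Depth limits the lowest levels: 1 read in a transcript of 1 kb was worth 0.0513 TPM in the deepest library and 0.790 in the shallowest.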
